A study of Mus musculus with 12 samples.

Results

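The genes described here are 37 genes of the motile cilium, the beating hair that ependymal cells carry in tufts on the wall of the brain ventricles. They were chosen by gene symbol, with Foxj1 as the marker of the ciliated cell, and all 37 had a probe on the array. A probe was used when the scanner software called it well above background in all 3 mice of some group, and the normalized log2 signals of a gene's used probes were averaged. By that rule 36 of the 37 genes were measured, among 18266 gene symbols measured in all. Dnah3, an inner arm dynein heavy chain, was not measured: its 1 probe was well above background on 0 of 12 arrays.

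Hypothalamus RNA of 12 male mice was hybridised to single-color arrays, with 3 mice in each of 4 groups. Wild-type control mice (WT) and Asmt-knockout control mice (KO) did not swim, and wild-type exercise mice (exercised WT) and Asmt-knockout exercise mice (KE) were trained to swim daily. KO and KE mice were homozygous for a 20 bp deletion made with Cas9 in zygotes of C57BL/6 mice, came from founders backcrossed for 3 generations to wild-type littermates, and were compared with wild-type littermates. The age on the labels was 6 to 7 weeks for all 12 mice, which the methods give as the age when swimming began. Asmt encodes the last enzyme of melatonin synthesis, and the study asked what its loss and swimming change in the hypothalamus. The paper states that Asmt activity is already low from birth in C57BL/6J mice, and it found no significant knockout effect on serum melatonin. The deletion is in every cell, so no group separates ependymal cells from the rest of the tissue. Mice are numbered here as in the sample titles.

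Motile cilia beat because rows of dynein motors slide the microtubule doublets of the axoneme against each other. Outer arm dyneins set mainly the speed of the beat and inner arm dyneins its shape, radial spokes and the central pair of microtubules pass control signals to the arms, and tektins and other proteins line the inside of the doublets. FOXJ1 is the transcription factor that switches on most of these genes, and RFX factors, which bind the X-box motif, act with it. In the brain the cilia move cerebrospinal fluid, and loss of several of these genes in mice gives hydrocephalus. In the hypothalamus the ciliated ependymal cells line the upper wall of the ventricle, while tanycytes, most of which have no tuft of motile cilia, line its floor.

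All 10 marker genes of hypothalamic neurons that were looked up were measured, with mean log2 levels between 12.8 and 13.2 per array. The 1 Asmt probe was well above background on 0 of 12 arrays, so it gives no check of the genotype. The arrays lay on 2 slides, scanned at different times. The 3 WT mice and KO mice 1 and 2 were on slide 1, and KO mouse 3 with all exercised WT and KE mice was on slide 2. Between KO mouse 3 and the other KO mice, 27.7% of all genes differed at an unadjusted limma p under 0.05. For exercised WT and KE against WT, slide and swimming cannot be told apart except through these 3 KO mice, so values with slide as a block stand beside the results below. With that block, the difference of KE from KO sets the KE mice against KO mouse 3 alone. The difference of KO from WT then sets KO mice 1 and 2 against the WT mice. Of the 36 measured motile cilia genes, 4 differed between the slides at that threshold in KO mice, Ccdc114 upward and Ccdc40, Efhb and Dnah5 downward. Ccdc114 alone was also under an adjusted p of 0.05, as 9.35% of all genes were, with KO mouse 3 higher by 0.63 (limma adjusted p = 0.00356). This contrast sets 1 mouse against 2, so its spread comes from the other groups and KO mice 1 and 2, and slide and mouse cannot be told apart in it.

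The genes were tested with limma on all 12 arrays, and p-values were adjusted by Benjamini-Hochberg over all 18266 genes. No motile cilia gene passed an adjusted p of 0.05 in any of the 6 comparisons, which were KO against WT, exercised WT against WT, KE against KO, KE against exercised WT, KE against WT, and the interaction of genotype with swimming. Over all genes the share that passed was 0% in each of these except KE against WT, where it was 0.00547%. Counts at an unadjusted p under 0.05 are therefore given beside the same share over all genes, as a description.

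**Figure D1:**
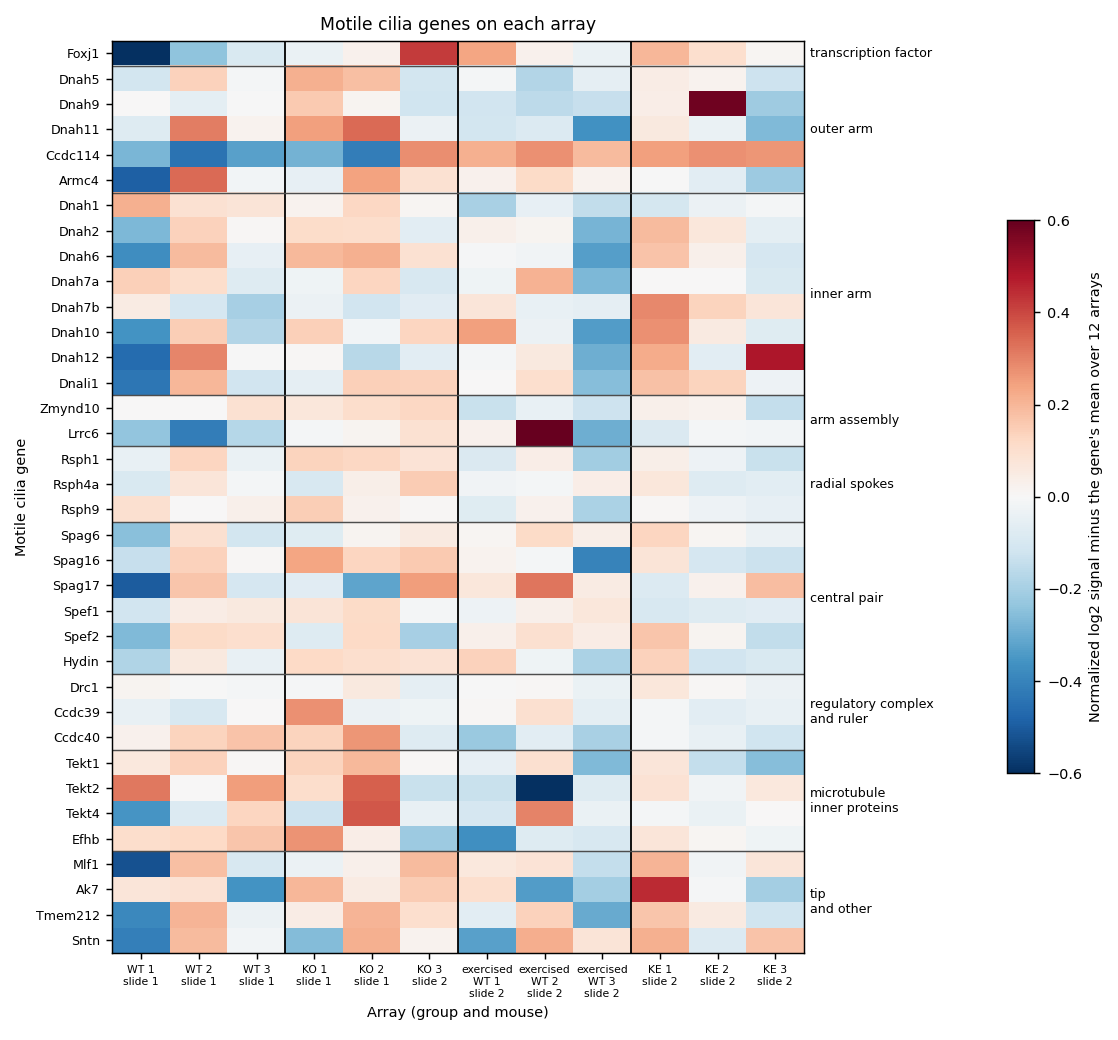
Each row is 1 of the 36 measured motile cilia genes, grouped by role, and each column is 1 array, labelled with group, mouse number and slide. Color is the normalized log2 signal minus the gene's mean over the 12 arrays, and differences beyond 0.6 take the end color. Many rows are blue in WT mouse 1 and exercised WT mouse 3, while Ccdc114 is blue on every slide 1 array and red on every slide 2 array.

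Foxj1 was the gene with the lowest unadjusted p between KO and WT mice. Its normalized log2 signal was 8.95, 9.31 and 9.46 in the WT mice and 9.51, 9.58 and 9.97 in the KO mice. It was 9.79, 9.58 and 9.51 in the exercised WT mice and 9.75, 9.65 and 9.57 in the KE mice. All 9 mice of the other groups thus lay above the 3 WT mice, by as little as 0.05 between the highest WT and the lowest KO mouse, and the other groups overlapped each other. The control means were 9.24 ± 0.26 (SD, n = 3) for WT and 9.69 ± 0.25 for KO, and the means of the swimming mice 9.63 ± 0.14 for exercised WT and 9.66 ± 0.09 for KE. KO exceeded WT by 0.45 on the log2 scale (95% confidence interval 0.11 to 0.78, limma adjusted p = 0.84), a 1.36-fold difference, by 0.31 with slide as a block and by 0.30 without WT mouse 1. Exercised WT exceeded WT by 0.39 (adjusted p = 0.162), but with slide as a block the difference was -0.04. KE and exercised WT, all on 1 slide, differed by 0.03 (interval -0.31 to 0.37). The difference of KE from KO was -0.03, and -0.31 with slide as a block. The latter sets KE against KO mouse 3 alone, whose value was the highest of all mice.

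Between KO and WT mice, small differences leaned upward. Of 36 genes, 28 were higher in KO and 8 lower, and their median difference was 0.09 on the log2 scale, against -0.01 over all genes, of which 46.9% were higher. Foxj1 was the 1 gene higher at an unadjusted p under 0.05, where 2.68% of all genes were, and 0 genes were lower, where 2.78% of all genes were. That count rested on single WT mice. Without WT mouse 1 it was 0 genes, against 4.96% of all genes, and without WT mouse 2 it was 6 (16.7%), against 5.89%. With slide as a block the 1 gene under this threshold was Dnah5, higher by 0.19, and no longer Foxj1, where 5.84% of all genes were. The 95% interval lay within 2-fold in either direction for all 36 genes and within 1.5-fold for 33. The median stayed above 0 in every leave-out, between 0.03 without WT mouse 1 and 0.16 at the most.

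By role, the 5 outer arm genes were higher in KO, by 0.04 to 0.21, and so were the 3 radial spoke genes, by 0.02 to 0.10. With slide as a block 4 of 5 and 2 of 3 were, since Ccdc114, which gave the 0.21, was then at 0.00 and Rsph4a at -0.02. In WT mice the outer arm heavy chains Dnah5, Dnah9 and Dnah11 had levels of 8.08 ± 0.13, 7.24 ± 0.03 and 7.56 ± 0.20 (SD, n = 3), and the docking genes Ccdc114 and Armc4, which fix the arm to the doublet, 8.26 ± 0.09 and 5.94 ± 0.42. The radial spoke head genes Rsph1, Rsph4a and Rsph9 were at 9.73 ± 0.10, 8.98 ± 0.08 and 11.72 ± 0.05. Of the 8 inner arm genes, 5 were higher, and differences ran from -0.07 to 0.24. Of the 6 central pair genes, 5 were higher, by up to 0.17, and the exception was Spef2, at -0.04. Of the 3 genes of the regulatory complex and ruler, 1 was higher (median 0.00), and of the 4 genes inside the doublet 2 were (median -0.02). With slide as a block all 7 of these were higher. Both assembly genes and the 4 genes of the tip and other places were higher with and without the block. These levels describe each probe set and are not comparable between genes.

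Dnah6, an inner arm heavy chain, was second after Foxj1. Its signal lay at 8.35, 8.91 and 8.67 in WT, at 8.91, 8.93 and 8.81 in KO mice, and among the swimming mice at 8.71, 8.70 and 8.39 (exercised WT) and 8.89, 8.75 and 8.62 (KE). WT mouse 1 was far below the other WT mice, and WT mouse 2 was as high as the KO mice. The difference of KO from WT was 0.24 (interval -0.07 to 0.56, adjusted p = 0.84), and it was 0.10 without WT mouse 1 and 0.38 without WT mouse 2.

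Hydin, a central pair gene whose loss gives hydrocephalus in mice, came next. It was at 6.84, 7.08 and 6.98 in WT and at 7.14, 7.12 and 7.11 in KO mice. It was at 7.16, 7.00 and 6.83 in exercised WT and at 7.16, 6.91 and 6.93 in KE mice. The KO mice lay close together and just above the WT mice, while each swimming group held a mouse above all KO mice. The difference of KO from WT was 0.16 (interval -0.06 to 0.37, adjusted p = 0.84), and 0.09 without WT mouse 1.

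**Figure D2:**
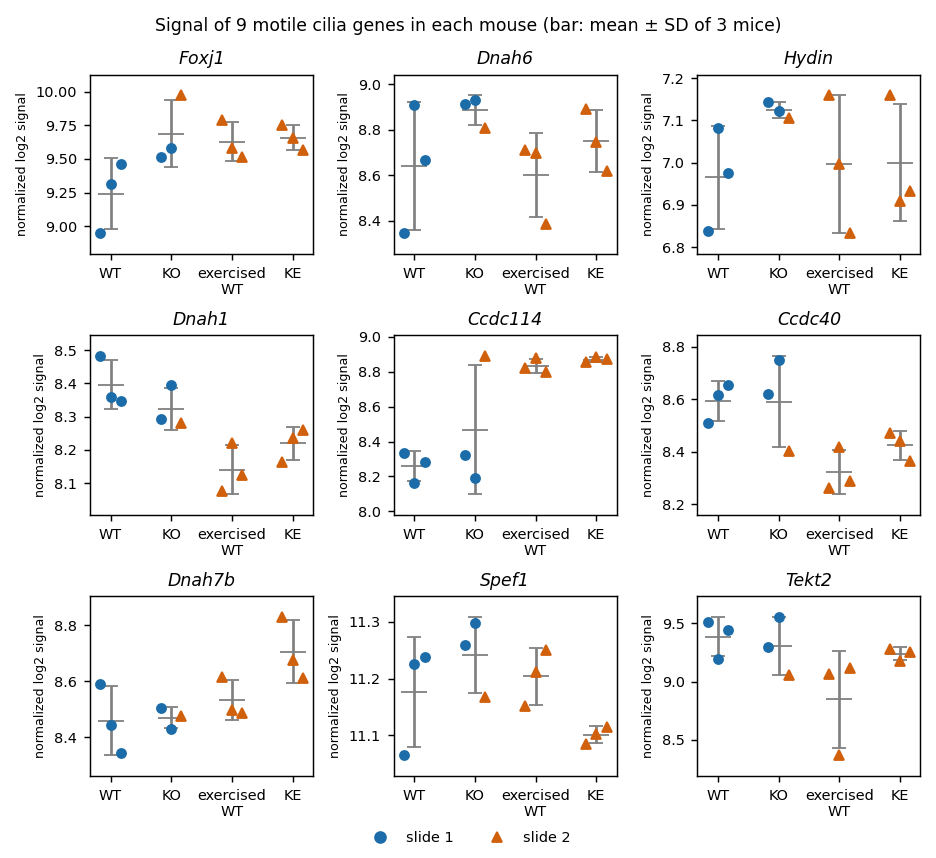
Each panel is 1 gene, with the normalized log2 signal on the vertical axis (scaled per gene) and the groups on the horizontal axis. Points are single mice, circles on slide 1 and triangles on slide 2, and gray bars are the mean ± SD of 3 mice. Ccdc114 splits by slide within the KO group, where mouse 3 is at 8.89, and Foxj1 is lowest in WT.

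Between swimming and control wild-type mice the genes scattered around no change. Of 36 genes, 17 were higher in exercised WT and 19 lower, with a median of -0.01, against -0.04 over all genes. At an unadjusted p under 0.05, 2 genes were higher, Ccdc114 and Foxj1, where 10.6% of all genes were. At the same threshold 5 were lower, where 14% of all genes were. These were Dnah1, Ccdc40, Tekt2, Efhb and Zmynd10. With slide as a block 0 of the 36 genes had an unadjusted p under 0.05 in this comparison, where 5.97% of all genes did. The 95% interval was within 2-fold for 35 genes and within 1.5-fold for 31. The exception to the former was Lrrc6, a factor in the assembly of dynein arms before they enter the cilium, whose level was 7.63 in exercised WT mouse 2 and between 6.12 and 6.62 in the other 11 mice.

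Ccdc114 had the largest upward difference. Its signal lay at 8.33, 8.16 and 8.28 in WT, at 8.32, 8.19 and 8.89 in KO mice, and among the swimming mice at 8.82, 8.88 and 8.80 (exercised WT) and 8.85, 8.88 and 8.87 (KE). Every array of slide 1 was at or below 8.33 and every array of slide 2 at or above 8.80, and KO mouse 3 lay with the swimming mice of its slide and not with the other KO mice. Exercised WT exceeded WT by 0.57 (interval 0.25 to 0.90, adjusted p = 0.101). With slide as a block the difference was -0.06. Within slide 2, KE differed from KO mouse 3 by -0.02.

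Ccdc114 also shows how much the reading depends on the probe. The array has 2 probes of 60 bases for it on chromosome 7 of mm9, and both are printed because they gave different readings. The upper one is designed to the RefSeq mRNA and was well above background on 3 of 12 arrays, so it was not used. The lower one is designed to a cDNA clone with no RefSeq accession, passed on all 12 arrays, and alone gives the values above. Exercised WT minus WT was -0.41 on the upper probe, mostly not well above background, and 0.57 on the lower one. KE minus KO was -0.34 and 0.40 in the same order.
Ccdc114 RefSeq mRNA probe, chr7:53203367-53203426: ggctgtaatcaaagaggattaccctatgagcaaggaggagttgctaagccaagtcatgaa
Ccdc114 cDNA clone probe, chr7:53186851-53186910: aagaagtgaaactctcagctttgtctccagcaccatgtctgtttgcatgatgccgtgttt
With only probes of RefSeq mRNAs, a choice made after the values were seen, Ccdc114 had no level. The median over the 34 genes still measured was then -0.01 for exercised WT against WT.

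Dnah1, an inner arm heavy chain, was the gene of lowest p for exercised WT against WT. It was at 8.48, 8.36 and 8.35 in WT, at 8.29, 8.39 and 8.28 in KO mice, and among the swimming mice at 8.08, 8.22 and 8.12 (exercised WT) and 8.16, 8.23 and 8.26 (KE). All 6 swimming mice were below all 6 control mice. The difference of exercised WT from WT was -0.26 (interval -0.39 to -0.12, adjusted p = 0.101), and -0.19 with slide as a block.

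Ccdc40, which with Ccdc39 sets the spacing of the arms along the doublet, was at 8.51, 8.61 and 8.65 in WT, at 8.62, 8.75 and 8.40 in KO mice, and among the swimming mice at 8.26, 8.42 and 8.29 (exercised WT) and 8.47, 8.44 and 8.36 (KE). KO mouse 3 again lay among the swimming mice of slide 2. The difference of exercised WT from WT was -0.27 (interval -0.46 to -0.08, adjusted p = 0.118), and 0.01 with slide as a block. Ccdc39 itself was at 7.13 ± 0.05 in WT and 7.19 ± 0.08 in exercised WT (SD, n = 3), and Drc1, a subunit of the complex that links neighboring doublets, at 12.24 ± 0.01 and 12.22 ± 0.02.

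The count for this comparison depended on KO mouse 3, which entered it only through the spread shared by all groups. Without that array 4 genes (11.1%) passed an adjusted p of 0.05, where 14.5% of all genes did. These were Ccdc114 at 5.51e-04, Dnah1 at 0.023, Ccdc40 at 0.0248 and Efhb at 0.0456. The values of their differences did not move, since neither WT nor exercised WT changed. Efhb, a protein inside the doublet, was at 7.14 ± 0.03 in WT, 7.04 ± 0.25 in KO and 6.83 ± 0.16 in exercised WT (SD, n = 3).

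Between swimming and control knockout mice, 12 of 36 genes were higher in KE and 24 lower, with a median of -0.06, against -0.04 over all genes. At an unadjusted p under 0.05, 2 were higher, Dnah7b and Ccdc114, where 6.95% of all genes were, and 2 were lower, Zmynd10 and Spef1, where 13.5% of all genes were. Intervals were within 2-fold for all 36 genes. Ccdc114 differed by 0.40 (adjusted p = 0.18), and by -0.02 with slide as a block. Without KO mouse 3, which leaves the KO group on slide 1 alone, 2 genes (5.56%) passed an adjusted p of 0.05, Ccdc114 at 5.61e-04 and Ccdc40 at 0.0326, where 21.5% of all genes did.

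Dnah7b, an inner arm heavy chain, had the lowest p in this comparison and again for KE against exercised WT. Its signal lay at 8.59, 8.44 and 8.35 in WT, at 8.50, 8.43 and 8.48 in KO mice, and among the swimming mice at 8.62, 8.50 and 8.49 (exercised WT) and 8.83, 8.68 and 8.61 (KE). The KE mice were above all KO mice, and exercised WT mouse 1 lay among them. KE exceeded KO by 0.24 (interval 0.07 to 0.41, adjusted p = 0.16), and by 0.23 with slide as a block. KE exceeded exercised WT by 0.17 (interval 0.00 to 0.34, adjusted p = 0.699).

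Its 2 probes in use did not do the same. The probe near the end of the gene, designed to the RefSeq mRNA, averaged 10.36 for WT and 10.33 for KO, and 10.15 for exercised WT and 10.35 for KE. The other, designed to a transcript model, averaged 6.56, 6.61, 6.92 and 7.06 in the same order. KE exceeded KO by 0.02 on the first and by 0.45 on the second. The second probe's values were 6.54, 6.54 and 6.76 in KO mice 1 to 3, and 6.88 to 7.19 in the 6 swimming mice.

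Spef1, a microtubule-binding protein needed to build the central pair, was at 11.07, 11.23 and 11.24 in WT, at 11.26, 11.30 and 11.17 in KO mice, and among the swimming mice at 11.15, 11.21 and 11.25 (exercised WT) and 11.09, 11.10 and 11.11 (KE). The 3 KE mice lay within 0.03 of each other and below every KO and exercised WT mouse, and WT mouse 1 was lower still. The difference of KE from KO was -0.14 (interval -0.27 to -0.01, adjusted p = 0.226), and -0.07 with slide as a block. The difference of KE from exercised WT was -0.10 (interval -0.24 to 0.03, adjusted p = 0.766).

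**Figure D3:**
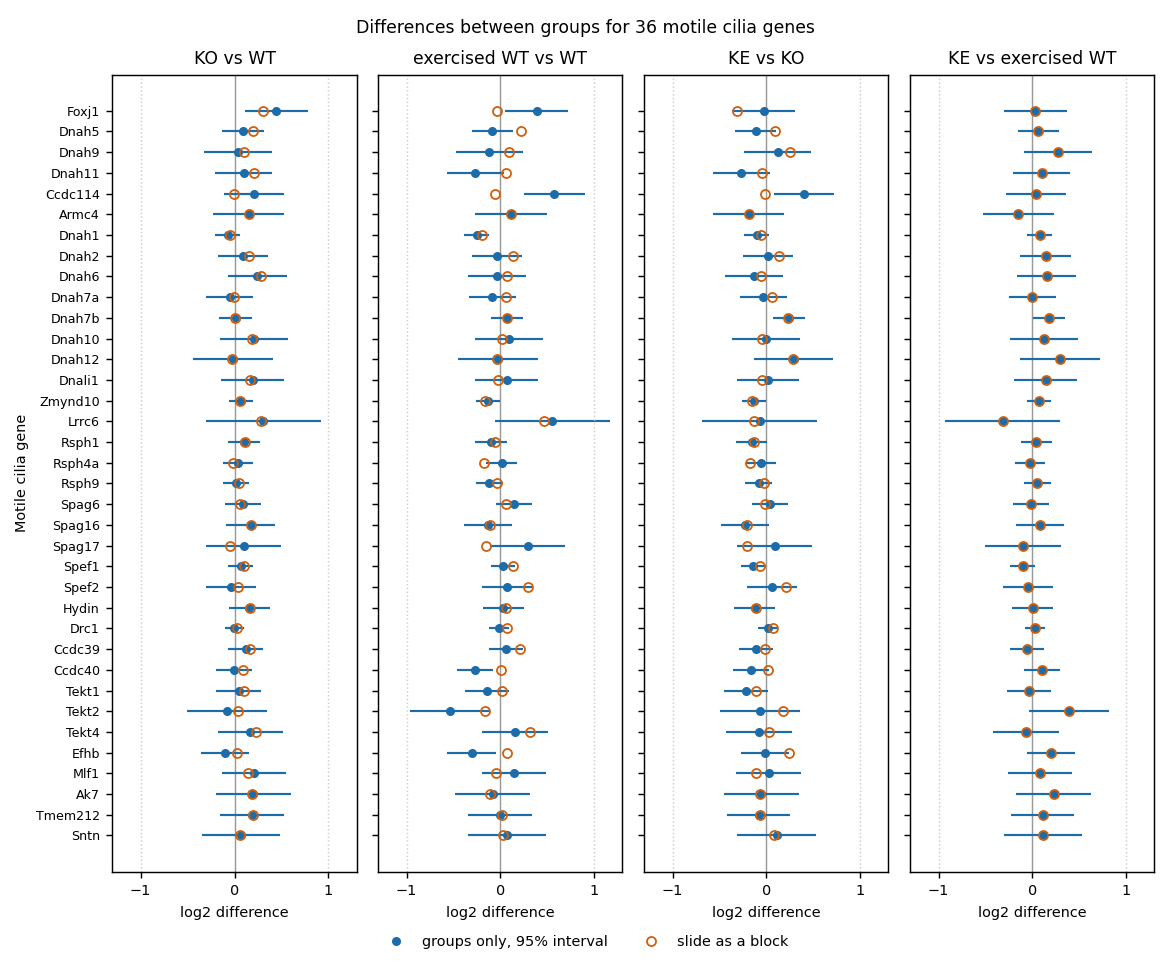
Each row is 1 motile cilia gene and each panel 1 comparison. Filled points are log2 differences with their 95% confidence intervals from limma on group means, open circles are the same differences with slide as a block, and dotted lines mark a 2-fold difference. In KO vs WT 28 of 36 filled points are to the right of 0, and in exercised WT vs WT the open circle of Ccdc114 lies at -0.06, far from its filled point at 0.57.

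KE and exercised WT mice shared a slide, so their comparison lies within 1 slide. Of 36 genes, 25 were higher in KE and 11 lower, with a median of 0.07, against -0.01 over all genes, of which 45.2% were higher. The median was 0.00 without exercised WT mouse 3, 0.03 without KE mouse 1 and 0.11 without exercised WT mouse 2. At an unadjusted p under 0.05, 1 gene was higher, Dnah7b, where 2.1% of all genes were, and 0 were lower, where 5.02% of all genes were. The interval was within 2-fold for all 36 genes and within 1.5-fold for 31. Inner arm genes were higher in 7 of 8 cases, by up to 0.30, while 2 of the 6 central pair genes were. The 0.30 was Dnah12, whose average includes 2 probes of identical sequence that read 7.29 and 6.15 in KE mouse 3.

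Tekt2, a tektin inside the doublet, had the second lowest p here. It was at 9.51, 9.20 and 9.44 in WT, at 9.30, 9.55 and 9.06 in KO mice, and among the swimming mice at 9.06, 8.37 and 9.12 (exercised WT) and 9.28, 9.17 and 9.26 (KE). Exercised WT mouse 2 was far below the other 11 mice. The difference of KE from exercised WT was 0.39 (interval -0.04 to 0.81, adjusted p = 0.725), and 0.15 without exercised WT mouse 2. Tekt1 and Tekt4 were at 10.98 ± 0.18 and 9.43 ± 0.21 in exercised WT and at 10.95 ± 0.17 and 9.36 ± 0.02 in KE (SD, n = 3).

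Against WT, KE mice had 21 of 36 genes higher and 15 lower, with a median of 0.03, against -0.06 over all genes. At an unadjusted p under 0.05, 3 were higher, Ccdc114, Foxj1 and Dnah7b, where 10.9% of all genes were, and 1 was lower, Dnah1, where 17.9% of all genes were. With slide as a block the median was 0.11 and 0 of the 36 genes had an unadjusted p under 0.05, where 4.48% of all genes did. The median was -0.04 without WT mouse 1, -0.03 without KE mouse 1, 0.07 without KE mouse 3 and 0.10 without WT mouse 2, so its sign depended on single mice. Without KO mouse 3, Ccdc114 at 2.85e-04 and Foxj1 at 0.0487 passed an adjusted p of 0.05 (5.56% of the genes), where 19.8% of all genes did. The interaction, that is the difference of KE from KO minus that of exercised WT from WT, had a median of -0.05, and 0 genes were past an unadjusted p of 0.05 in either direction, where 3.21% of all genes were upward and 4.83% downward. The intervals of 34 of 36 interactions were within 2-fold, and 22 were within 1.5-fold. For the other 14, 3 mice per group do not exclude an interaction of that size.

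For the genes not yet given, the levels in WT mice were as follows (SD, n = 3). The inner arm genes Dnah2, Dnah7a, Dnah10 and Dnah12 were at 9.01 ± 0.21, 7.80 ± 0.12, 8.20 ± 0.26 and 5.85 ± 0.38, and the light intermediate chain Dnali1 at 9.30 ± 0.32. The assembly factor Zmynd10 was at 8.49 ± 0.05. The central pair genes Spag6, Spag16, Spag17 and Spef2 were at 9.66 ± 0.18, 5.87 ± 0.14, 4.65 ± 0.33 and 7.69 ± 0.22. Mlf1, the adenylate kinase Ak7, Tmem212 and Sntn, whose protein sentan sits at the ciliary tip, were at 8.45 ± 0.35, 5.85 ± 0.25, 10.74 ± 0.30 and 5.87 ± 0.30. Among the swimming mice Dnah9 was at 7.85 in KE mouse 2, and between 7.05 and 7.30 in the other 5. The probe named Spag6 on the array carries the gene identifier that RefSeq now names Spag6l.

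The genes varied together from mouse to mouse within a group. WT mouse 1 held the lowest of the 3 WT values for 23 of 36 genes (63.9%), against 36.2% over all genes. Exercised WT mouse 3 was lowest for 22 genes (61.1%, all genes 35.5%) and KE mouse 3 for 23 genes (63.9%, all genes 32.2%). KE mouse 1 was highest for 27 genes (75%), against 33% over all genes. In the KO group no mouse stood out in this way, since KO mouse 3 was lowest for 17 genes (47.2%) and for 49% of all genes. Relative to the group mean, the median over the 36 genes was -0.11, 0.10 and 0.03 in the WT mice, 0.01, 0.01 and -0.02 in the KO mice, 0.01, 0.08 and -0.08 in the exercised WT mice and 0.08, -0.01 and -0.07 in the KE mice. The WT median thus spans more between mice than the 0.09 by which KO exceeded WT. In RNA of whole tissue, fewer ciliated cells and less RNA per cell cannot be told apart.

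Of 90 other motile cilia genes, 83 were measured, and their medians relative to the group mean were -0.06, 0.08 and -0.02 in the WT mice, 0.00, 0.05 and -0.06 in the KO mice, 0.01, 0.06 and -0.09 in the exercised WT mice and 0.07, -0.01 and -0.07 in the KE mice. Exercised WT mouse 3 was lowest for 58 of them (69.9%) and KE mouse 1 highest for 54 (65.1%). Of 44 genes of the primary cilium, the single immotile cilium of neurons and other cells, all were measured. Exercised WT mouse 3 was lowest for 22.7% of them and KE mouse 1 highest for 36.4%, and their medians stayed between -0.06 and 0.06. Lists without cilia genes shared the pattern in part. Of 10 hypothalamic neuron markers, exercised WT mouse 3 was lowest for 70% and KE mouse 1 highest for 80%. Of 10 tanycyte markers, KE mouse 1 was highest and KE mouse 3 lowest for 70% each, but exercised WT mouse 3 was lowest for 30%. Of 8 astrocyte markers, the shares were 25% for exercised WT mouse 3 lowest and 12.5% for KE mouse 1 highest. The same shares were 62.5% and 50% of 8 choroid plexus markers, and 50% and 83.3% of 6 ependymal markers outside the axoneme. Ependymal markers outside the axoneme, 6 of 6 measured, were at -0.07, 0.07 and -0.01 in the WT mice, at 0.03, 0.07 and -0.13 in the KO mice, at 0.00, 0.00 and -0.01 in the exercised WT mice and at 0.09, -0.03 and -0.04 in the KE mice.

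**Figure D4:**
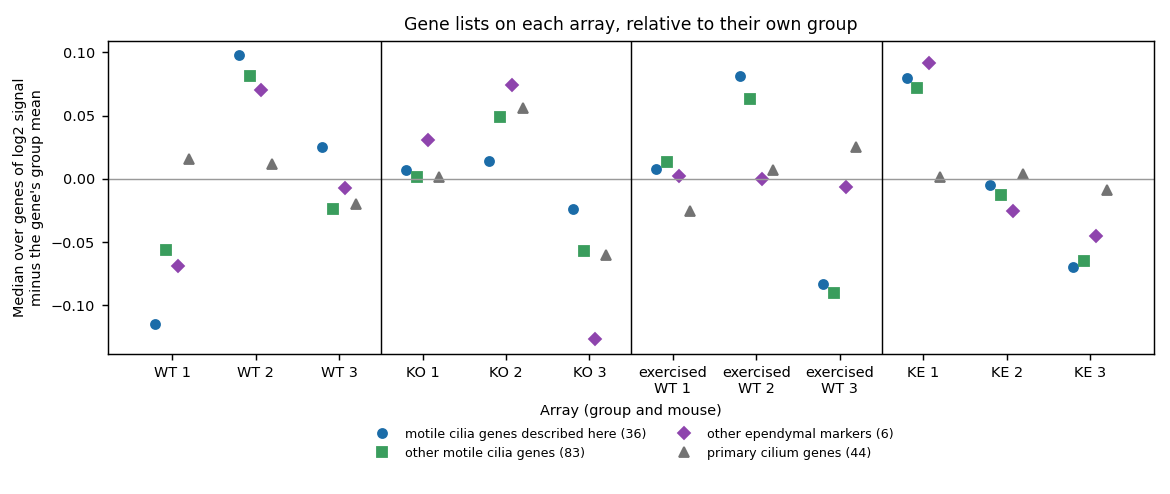
The vertical axis is the median over the genes of a list of the normalized log2 signal minus each gene's mean in its own group, and the horizontal axis is the 12 mice by group. Diamonds are 6 ependymal markers. Circles (36 genes) and squares (83 other motile cilia genes) lie near each other in most mice, with WT mouse 1, exercised WT mouse 3 and KE mouse 3 below 0 and WT mouse 2, exercised WT mouse 2 and KE mouse 1 above it, while triangles (44 primary cilium genes) do not follow them in exercised WT and WT.

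Between groups, the 83 other motile cilia genes had medians of 0.07 for KO against WT, -0.08 for exercised WT against WT, -0.11 for KE against KO and 0.02 for KE against exercised WT. At an unadjusted p under 0.05, 5 were higher and 1 lower in KO than in WT, where 2.68% and 2.78% of all genes were. Among them were Ttc25, a docking gene, at 0.31 and Dnajb13, a radial spoke gene, at 0.30. In exercised WT against WT, 7 were higher and 15 lower, where 10.6% and 14% of all genes were, and with slide as a block the median was 0.02. In KE against KO, 3 were higher and 11 lower, where 6.95% and 13.5% of all genes were, with Ttc25 at -0.43 and -0.45 with slide as a block. In KE against exercised WT, 1 was higher, Dnah8 at 0.29, and 0 were lower, where 2.1% and 5.02% of all genes were. No gene of this list passed an adjusted p of 0.05 in these 4 comparisons.

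Of 17 regulators of ciliogenesis, 15 were measured, and 0 of them had an unadjusted p under 0.05 for KO against WT or for KE against exercised WT. Over all genes the shares in these comparisons were 5.46% and 7.12%. For exercised WT against WT 3 were higher, Mcidas, E2f4 and E2f5, and 1 lower, Nfix, where 10.6% and 14% of all genes were. For KE against KO Mcidas was higher and Gmnc lower, where 6.95% and 13.5% of all genes were. With slide as a block 1 was higher and 0 lower in each of these comparisons. In either direction, 5.97% of all genes were then under that threshold for exercised WT against WT and 8.21% for KE against KO. E2f4 passed the probe filter only through the swimming groups and Gmnc only through exercised WT, so their directions are tied to that filter. Mcidas, a coactivator of the multiciliated program that acts upstream of Foxj1, was at 11.98, 12.12 and 12.01 in WT, at 11.89, 11.68 and 12.78 in KO mice, and among the swimming mice at 12.88, 12.62 and 12.42 (exercised WT) and 12.90, 12.93 and 12.91 (KE). As with Ccdc114, KO mouse 3 lay with the other slide 2 arrays. E2f4, a partner of that program, was well above background on 0 of the 5 slide 1 arrays and on all 7 slide 2 arrays. Gmnc, another regulator of that program, was well above background in 2 WT, 2 KO, 3 exercised WT and 0 KE mice. Rfx3, an RFX factor of ciliated cells, ranged from 7.69 to 8.03 over the 12 mice, and Myb, which acts before Foxj1 in the program, from 7.21 to 7.99.

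Markers of other cells near the ventricle were counted beside these genes. Of 10 choroid plexus markers, 8 were measured, with mean levels of 7.29 to 7.82 in WT, 7.02 to 8.02 in KO, 7.77 to 8.25 in exercised WT and 7.37 to 7.58 in KE mice. The 3 KO mice were the farthest apart. Ttr, the main transcript of the choroid plexus, ranged from 3.68 in KO mouse 1 to 8.66 in exercised WT mouse 2. Of 10 tanycyte markers, 10 were measured, at 8.33 to 8.38 in WT, 8.43 to 8.69 in KO, 8.37 to 8.53 in exercised WT and 8.11 to 8.28 in KE mice. Their median difference was 0.14 for KO against WT, -0.24 for KE against KO and -0.16 for KE against exercised WT. In the last comparison 0 were higher and 3 lower at an unadjusted p under 0.05, where 2.1% and 5.02% of all genes were. The 8 astrocyte markers were at 11.17 to 11.26 in all mice. The part of these cells in the values of the motile cilia genes was not tested.

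Probes of 1 gene did not always move together. Of the 36 genes, 26 rest on 1 probe. Of the 10 with several probes in use, the probes pointed in different directions for 5 in KO against WT, 8 in exercised WT against WT, 5 in KE against KO and 4 in KE against exercised WT. Dnah12, an inner arm heavy chain, has 2 probes of identical sequence, and in KE mouse 3 these read 7.29 and 6.15. In the other 11 mice the identical pair differed by at most 0.30.

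Promoter sequence was not used to choose these genes. Promoters here are the 300 bases from 250 before to 50 after the start site in RefSeq (GRCm38.p6), and one was counted for 30 of the 37 genes. None was counted for Foxj1, Armc4, Dnah3, Lrrc6, Rsph1, Rsph4a and Efhb. For the 37 genes, but not for the share over all genes, promoters on 1 chromosome were left out. Whether a gene without a counted promoter lacked an entry or lay on that chromosome was not checked. The X-box, searched on both strands with a gap of 1 to 3 bases between its arms, was in the promoters of 4 of these 30 genes (13.3%), against 1.65% of 27025 genes with a promoter in the table. GTTGCC, which all 4 of those X-boxes contain on one strand or the other, was on either strand in 14 (46.7%), against 14.1%. The forkhead motif GTAAACA was on either strand in 3 (10%), Mlf1, Ak7 and Sntn, against 4.05%. The 4 X-boxes are printed with 15 bases on each side, the X-box in capitals, in the direction of the gene, because the X-box is the motif that RFX factors bind.
Spag16, chr1:69826852-69826895, plus strand: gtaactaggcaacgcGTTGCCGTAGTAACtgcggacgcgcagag
Spef2, chr15:9748831-9748875, minus strand: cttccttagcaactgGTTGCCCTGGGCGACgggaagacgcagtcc
Hydin, chr8:110266941-110266984, plus strand: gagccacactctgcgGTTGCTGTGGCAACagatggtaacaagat
Tekt2, chr4:126325690-126325732, minus strand: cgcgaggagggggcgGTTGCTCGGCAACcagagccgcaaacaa
Spag16, Spef2 and Hydin are central pair genes and Tekt2 is a tektin. The Spag16 site ends 90 bases before the start site and the Hydin site 8 bases before it, the Tekt2 site 17 or 59 bases before it depending on the start site, and the Spef2 site lies after it. These matches describe letters and do not show binding, and the 4 genes did not share a direction: KO minus WT was 0.17 for Spag16, 0.16 for Hydin, -0.04 for Spef2 and -0.08 for Tekt2.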

How the data were processed

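Each of the 12 mice gave hypothalamus RNA for 1 single-color Agilent array. Per the labels, the arrays were read with Agilent Feature Extraction 10.7.1.1. The authors deposited the scanner output, whose values are spot intensity after background subtraction, and a table of log2 values that they had quantile-normalized. Tables of the authors' own comparisons hold fold changes and p-values, and they and their 24 per-sample columns were not used.

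From the scanner output, outlier spots were left out, the log2 of the processed signal was averaged per probe, and arrays were quantile-normalized. A probe was kept when well above background on all 3 arrays of a group (35230 of 56605 probes, and 51 of the 68 probes of these genes), and kept probes of a gene symbol were averaged. Spots well above background made up 61.6% to 67.9% of an array, and 3 arrays per group limit the precision. The 4 group means went into 1 limma fit (limma 3.58.1, R 4.3.3), tested on simulated data first. Intervals are at 95% and not adjusted for the number of genes. Nothing in the labels gives litters, so p-values measure the spread between these mice.

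The genes, lists and tests were chosen with earlier results of these data known. Every gene is named. Values per mouse are given for Foxj1 and, in each of 4 comparisons, for the 3 genes of lowest unadjusted p. Probes are placed as in the array's annotation, on mm9. Of other motile cilia genes, Cfap77, Cfap161, Cfap206 and Rsph10b had no probe, and 5 genes were found under older symbols.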

Additional observations from a re-analysis of the deposited data

How the results depend on the processing

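With 3 mice per group, 1 probe for most genes and slide tied to swimming, the data limit each difference to the intervals given, and a gene that missed the threshold is not shown to be unchanged. For KO against WT and for KE against exercised WT, the count of motile cilia genes past an adjusted p of 0.05 was 0 under every alternative and every leave-out. For exercised WT against WT and KE against WT it was 1 each with only the 2 groups in the fit, 1 each with the methods' t-test, and 3 and 5 with array weights, which also gave 5 for KE against KO. Over all genes the shares called were 5.05% and 14% with only the 2 groups, 1.3% and 9.65% with that t-test, and 12.4%, 25.9% and 29% with array weights, where the members' shares were 2.78% for 1 gene, 8.33% for 3 and 13.9% for 5. The gene of the single calls was Ccdc114. Leaving out single arrays gave 0 to 4 genes for exercised WT against WT, 0 to 2 for KE against KO and 0 to 2 for KE against WT, above 0 only without KO replicate 3, and a median difference of -0.092 (without WT replicate 1) to 0.053 for exercised WT against WT.

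With slide as a block the median for KE against WT was 0.11, and the sign turned for Foxj1 (-0.040), Ccdc114 (-0.056) and Ccdc40 (0.0086) in exercised WT against WT and for Ccdc114 in KE against KO (-0.019, and -0.019 within slide 2). Array weights turned Foxj1 in KE against KO to 0.093, and without the detection filter, which averages in probes not above background, Ccdc40 in exercised WT against WT was 0.32, Ccdc114 0.080 and Dnah1 -0.51, Ccdc114 in KE against KO 0.030 and Hydin in KO against WT 0.080. Leaving out single arrays gave Foxj1 -0.12 to 0.11 in KE against KO and -0.026 to 0.11 in KE against exercised WT. Other settings, among them the deposited normalized table, other background corrections and scalings, the brightest probe and RefSeq mRNA probes only (added after the data were seen), left the count at 0 and moved each median by less than 0.078, the SD of the genes' median between mice. Within that limit the median for exercised WT against WT (-0.0079) turned to 0.0041 with the brightest probe, 0.011 without the detection filter and 0.024 with slide as a block, and that for KE against WT (0.031) went to 0.0031 with array weights, 0.010 with RefSeq probes, 0.077 with 75th percentile scaling, 0.080 with the brightest probe and 0.097 with detection on all 12 arrays. Correlations of same-numbered mice ran from -0.175 to 0.233, and 8 of 12 arrays correlated best with an array of their own number. These values do not settle whether replicate numbers pair the mice. With the replicate block, 0 genes passed in any comparison and the median for KO against WT was 0.09. The causes of these changes were not tested. No paired value was possible for the methods' t-test, which was run unpaired.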
